A study of Mus musculus with 4 samples.

Results

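The 78 nuclear genes whose symbols are Mrpl or Mrps followed by a number, with or without 1 further letter, were followed by cell class and sort gate in cells of the mouse embryo. They were chosen by symbol from the 32285 genes of the count matrices, with no measured value used, and comprised 49 Mrpl genes, named for the large subunit of the mitochondrial ribosome, and 29 Mrps genes, named for the small subunit. The study dissociated the aorta-gonad-mesonephros region (AGM) of C57BL/6J embryos at embryonic day 11.5, where the first haematopoietic stem cells arise, and took cells carrying CD31, a surface protein of endothelial and some blood cells encoded by Pecam1. Sorting used TMRM, which stains mitochondria more strongly the higher their membrane potential is, and the gates MMPlow and MMPhigh took the dim and the bright cells. Each gate gave 2 single-cell libraries, prepared with version 3 chemistry of the 10x Genomics 3′ assay, with a target of no more than 10000 cells a lane per the labels. All 4 libraries carry the same genotype and had no treatment other than the stain and sort. The labels do not say that the 2 libraries of a gate came from separate embryos or sorts, so the p-values below measure the spread between these libraries, which may be technical.

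Single-cell RNA-seq counts unique molecular identifiers (UMIs), 1 per captured RNA molecule, and levels below are CPM, a gene's share of the UMIs of a summed group of cells on a parts-per-million scale. After filtering, 15698 and 18405 cells of MMPlow libraries 1 and 2 and 4139 and 3277 cells of MMPhigh libraries 1 and 2 were retained. Both MMPlow numbers are above the target of 10000, and how many of these barcodes hold a single cell was not tested. Depth differed: the median depth per cell was 3082 and 3639 UMIs for the MMPlow libraries but 3796 and 22937 UMIs for the MMPhigh libraries. At most 0.821% of the retained barcodes of any library recurred in another. The defining endothelial genes followed the gate: Pecam1 stood at 275 and 262 CPM in MMPlow and at 25.1 and 23.2 CPM in MMPhigh, and all 14 endothelial markers listed were lower in both MMPhigh libraries, with a summed level of 3267 and 3202 CPM against 150 and 126 CPM. Endothelial-like cells made up 46.7% and 45.2% of MMPlow and 0.362% and 0.427% of MMPhigh cells, although both gates are labelled as CD31-positive. Macrophage-like cells made up 4.72% and 5.26% of MMPlow and 9.28% and 23.2% of MMPhigh cells. A further cluster, number 11, was led by the globin gene Hbb-bs together with Cited4, Aif1 and Tyrobp, stayed unnamed, and held 1067 cells of MMPhigh 1 but 13, 8 and 15 cells of MMPlow 1, MMPlow 2 and MMPhigh 2. MMPhigh 1 therefore stood apart from the other libraries in its makeup, and some results that depend on it are also given without it. For the members called in the sums of all cells, only the range over the libraries left out is given.

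The mitochondrial ribosome makes the few proteins that mitochondrial DNA encodes, which are core subunits of the respiratory complexes and the ATP synthase. Its ribosomal RNAs come from mitochondrial DNA, whereas its proteins are encoded in the nucleus, made in the cytosol and imported, so building it needs output from both genomes. Some members have roles outside the place their symbol implies: Mrps18a and Mrps30 proteins sit in the large subunit, Mrpl58 is a peptidyl-tRNA hydrolase related to release factors, and the Mrps36 protein is a part of the 2-oxoglutarate dehydrogenase complex of the citric acid cycle. Erythroid cells, which are among the cells of the embryonic AGM, also carry out the first and last steps of haem synthesis in their mitochondria.

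The promoters of these genes are shown because many share short sequences that are known binding motifs of NRF1, of the ETS factor GABP and of YY1, factors with known roles in nuclear genes for mitochondria. RefSeq promoter windows of the GRCm38.p6 build, which run from 250 bases before to 50 bases after a transcription start, were found for 69 of the 78 members, 75 windows in all. The NRF1 motif, which is GCGCA, any base and then GCGC and was searched on both strands like the others, was in 13 windows of members, 17.3%, against 4.6% of all 32841 windows. The ETS motif CCGGAAGT was in 16% of member windows against 3.89%, and the YY1 motif AAGATGGCG was in 10.7% against 1.4%. At least 1 of these 3 was in 41.3% of member windows and in 9.24% of all windows, and the median GC content was 58.7% in members and 52.7% in all windows. Motifs are in capitals in the 4 windows below, 5′ to 3′ on the strand of the gene. Mrpl12 is the stalk protein that recruits translation factors and has 1 NRF1 match on the opposite strand at chr11:120484387-120484686, plus strand. Mrpl45, a large-subunit protein facing the inner membrane, has 3 NRF1 matches, the last of them on the opposite strand, at chr11:97315466-97315765, plus strand. Mrps26 has 2 overlapping NRF1 matches and 1 ETS match on the opposite strand at chr2:130563507-130563806, plus strand. Mrps27, an RNA-binding small-subunit protein, has 1 ETS match on the opposite strand and 1 YY1 match at chr13:99344536-99344835, plus strand. A match is a description of the letters, and no binding was measured here.
Mrpl12: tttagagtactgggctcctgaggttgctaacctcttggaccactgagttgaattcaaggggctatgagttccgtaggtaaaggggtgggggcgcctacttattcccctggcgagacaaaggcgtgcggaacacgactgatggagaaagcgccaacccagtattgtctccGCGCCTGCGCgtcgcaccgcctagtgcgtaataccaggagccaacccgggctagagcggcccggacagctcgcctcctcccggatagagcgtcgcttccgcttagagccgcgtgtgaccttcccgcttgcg
Mrpl45: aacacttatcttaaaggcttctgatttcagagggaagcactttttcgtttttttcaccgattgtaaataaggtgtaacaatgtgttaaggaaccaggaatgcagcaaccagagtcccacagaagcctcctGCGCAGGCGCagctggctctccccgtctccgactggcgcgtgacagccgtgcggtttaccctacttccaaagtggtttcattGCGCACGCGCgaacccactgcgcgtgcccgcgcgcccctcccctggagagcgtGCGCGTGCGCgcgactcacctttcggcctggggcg
Mrps26: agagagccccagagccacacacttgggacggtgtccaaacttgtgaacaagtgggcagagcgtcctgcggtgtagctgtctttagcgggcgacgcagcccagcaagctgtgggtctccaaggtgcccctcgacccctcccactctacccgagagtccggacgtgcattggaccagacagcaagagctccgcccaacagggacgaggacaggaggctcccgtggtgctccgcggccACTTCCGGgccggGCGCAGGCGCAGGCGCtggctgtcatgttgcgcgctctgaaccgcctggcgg
Mrps27: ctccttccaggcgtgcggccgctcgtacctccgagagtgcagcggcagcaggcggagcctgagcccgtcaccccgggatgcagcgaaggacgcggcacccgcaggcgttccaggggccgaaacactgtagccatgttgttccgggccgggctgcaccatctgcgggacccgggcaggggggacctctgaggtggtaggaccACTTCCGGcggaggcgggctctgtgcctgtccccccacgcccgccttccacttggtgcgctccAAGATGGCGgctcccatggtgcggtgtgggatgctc

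All 78 members were detected in every library, the least abundant with 512 UMIs in the sum of a library, and the genes lie on 17 chromosomes, 11 of them on chromosome 11 (mm10). Their mean levels over the 4 libraries ran from 13.2 CPM for Mrps2 to 240 CPM for Mrpl18, an 18.2-fold range with a median of 75.2 CPM. The 10 highest members held 26.7% of all member UMIs. Mrpl18, a large-subunit protein, stood at 211 and 239 CPM in MMPlow and at 268 and 240 CPM in MMPhigh. Mrpl20 stood at 183 and 204 against 265 and 229 CPM. Both are above the MMPlow libraries in both MMPhigh libraries, Mrpl18 by a narrow margin. Mrpl12 stood at 188 and 196 against 222 and 216 CPM, and Mrpl34 at 171 and 180.3 against 233 and 199.9 CPM. The small-subunit genes Mrps33, with 162 and 182 against 183 and 173 CPM, and Mrps14, with 151 and 170.0 against 190.0 and 160.3 CPM, overlapped between gates. So did Mrpl42 (145.5 and 168 against 184 and 161 CPM), Mrpl51 (146 and 168 against 181 and 159 CPM) and Mrpl52 (162 and 148 against 136 and 183 CPM). Mrpl30 stood at 126 and 137 against 185 and 156 CPM, higher in both MMPhigh libraries.

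Erythroid-like cells had the highest summed level of the members among the named cell classes. The classes were found by clustering cells on genes that included neither the members nor the OXPHOS, cytosolic ribosomal, mitochondrially encoded or mitochondrial translation genes, so the levels below are a description with no test of 1 class against another. Summed over the 78 members, the erythroid-like class stood at 10218 and 10979 CPM in MMPlow and 12789.5 and 12421 CPM in MMPhigh (mean 11602 ± 1209, SD, n = 4 libraries). Germ cell-like cells followed with 7971 ± 1411 CPM, at 6694 and 6904 in MMPlow and 9622 and 8663 in MMPhigh. Megakaryocyte-like cells stood at 7338 ± 918 CPM, with 6107 and 7165 against 8023 and 8056. The erythroid level was above those of both classes in every library, while the germ cell and megakaryocyte levels lie within their spread. Muscle progenitor-like (6417 ± 242 CPM), neural or neural crest-like (6293 ± 362 CPM), mesenchymal-like (6110 ± 504 CPM) and macrophage-like cells (5798 ± 83.6 CPM) lay close together, and neighbours in this order differed by less than their spread over libraries. Among classes with few MMPhigh cells, haematopoietic progenitor-like cells stood at 6100 ± 1622 CPM, endothelial-like cells at 5802 ± 680 CPM and epithelial or mesonephric-like cells at 5512 ± 523 CPM.

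**Figure D1:**
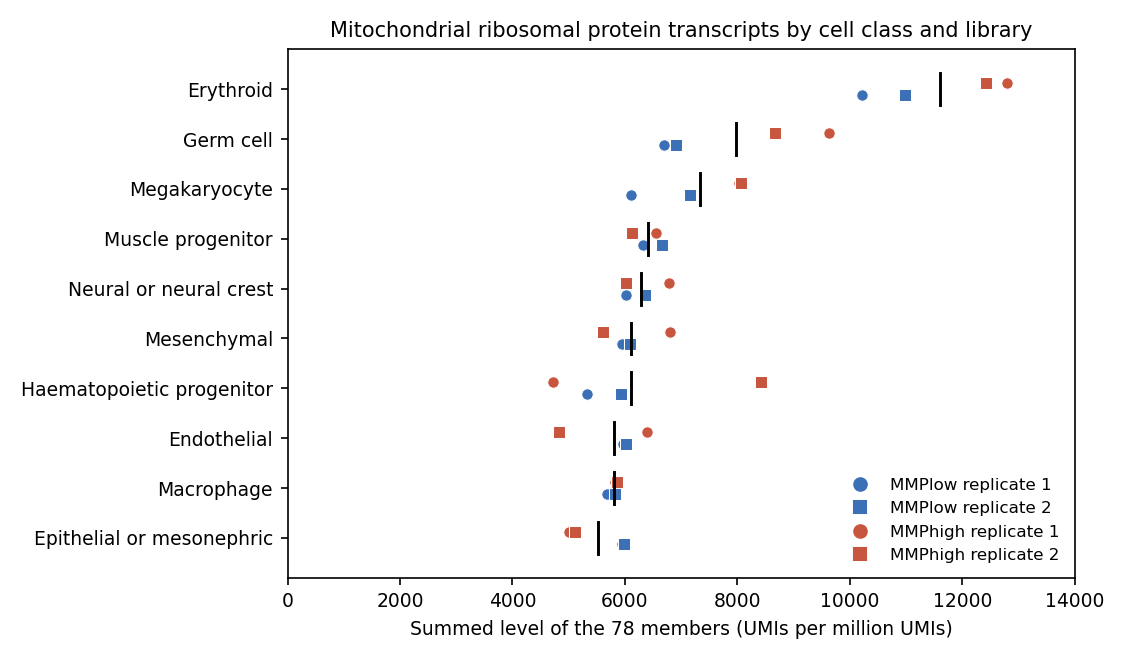
Summed level of the 78 members in each cell class, in CPM (x axis), with 1 point per library, coloured by gate and shaped by replicate, and the mean over libraries. Erythroid-like cells lie between 10218 and 12789.5, above the points of the other classes whose cells number at least 20 in each library.

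Within the erythroid-like class the level separated 2 clusters. Cluster 29, led by Hbb-bs, Hbb-bt, Rhag, Ank1 and Klf1, stood at 11832 and 12196 CPM in MMPlow and 12956 and 12435 CPM in MMPhigh. Cluster 37, led by the embryonic globin genes Hbb-y and Hba-x with Hba-a2 and Hbb-bh1, stood at 4812 and 5376 CPM in MMPlow and 10983 CPM in MMPhigh 1, and held 3 cells of MMPhigh 2, too few for a level. In MMPlow the cells of cluster 37 thus had a lower level of the members than those of cluster 29. The 14 erythroid markers, mostly globins, summed to 94288 and 67785 CPM in the class in MMPlow against 19312 and 2882 CPM in MMPhigh. Of unnamed clusters, cluster 4, led by Gm15915, Slc25a21, Ermap, Myb and Kcnn4, stood at 10330 ± 1297 CPM. Cluster 11 stood at 10767 CPM in MMPhigh 1, the library that held nearly all of its cells. Among the 18 clusters with 20 or more cells of each library, the lowest levels were those of cluster 17, whose leading genes include the neuronal gene Slc17a6, at 4870 ± 516 CPM, and cluster 24, led by Pax2 and Gad2, at 5097 ± 580 CPM. The share of member UMIs from Mrpl genes moved little, from 60.1% to 69.2% over all clusters, classes and libraries with a level. It was 66.3% to 66.7% in erythroid-like and 64.4% to 64.9% in macrophage-like cells.

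Across the 18 clusters with at least 20 cells in every library, the summed member level went with that of nuclear OXPHOS subunits (Pearson r 0.89, Spearman rho 0.94) and of cytosolic ribosomal proteins (r 0.84, rho 0.78). It went with cycling genes at r 0.75 (rho 0.75) and with median UMIs per cell at r 0.70 (rho 0.49), and against the nuclear RNA Malat1 at r -0.62 (rho -0.75). The RNAs encoded by mitochondrial DNA itself went with it at r 0.10 (rho 0.37). The clusters share libraries and depth, so these are descriptions across clusters and not tests.

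Over the 7 classes that held 20 or more cells of each library, 65 of the 78 members had their highest mean in the erythroid-like class, which also had the highest summed level, 11 in germ cell-like cells, Mrpl53 in megakaryocyte-like cells and Mrps33 in neural or neural crest-like cells. The lowest class was macrophage-like for 41 members, neural for 12 and mesenchymal-like for 9, with 6 in germ cell-like, 6 in muscle progenitor-like and 4 in megakaryocyte-like cells. The ratio of the highest to the lowest mean of these 7 classes ran from 1.32 for Mrps33 to 3.59 for Mrps18b, with a median of 2.21. Mrps18b, a small-subunit protein, stood at 84.5, 126, 138 and 166 CPM in erythroid-like cells of MMPlow 1, MMPlow 2, MMPhigh 1 and MMPhigh 2, against 39.0, 38.0, 33.1 and 33.0 CPM in mesenchymal-like cells. Mrpl36 stood at 201, 237, 252 and 259 CPM in erythroid-like against 74.5, 73.5, 72.1 and 54.0 CPM in mesenchymal-like cells. The classes did not overlap for either gene, and the erythroid-like level of Mrps18b was the more variable. Mrpl12 stood at 407, 393, 549 and 553 CPM in erythroid-like cells and 163, 149, 125 and 133 CPM in macrophage-like cells. Mrpl52 stood at 316, 333, 235 and 370.1 CPM in erythroid-like against 114, 101, 74.5 and 105 CPM in megakaryocyte-like cells. Mrpl57, in which the lowest class was mesenchymal-like, stood at 278, 261, 306 and 289 against 107, 93.7, 91.7 and 64.5 CPM. These 5 members had the widest ratios between the 7 classes.

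**Figure D2:**
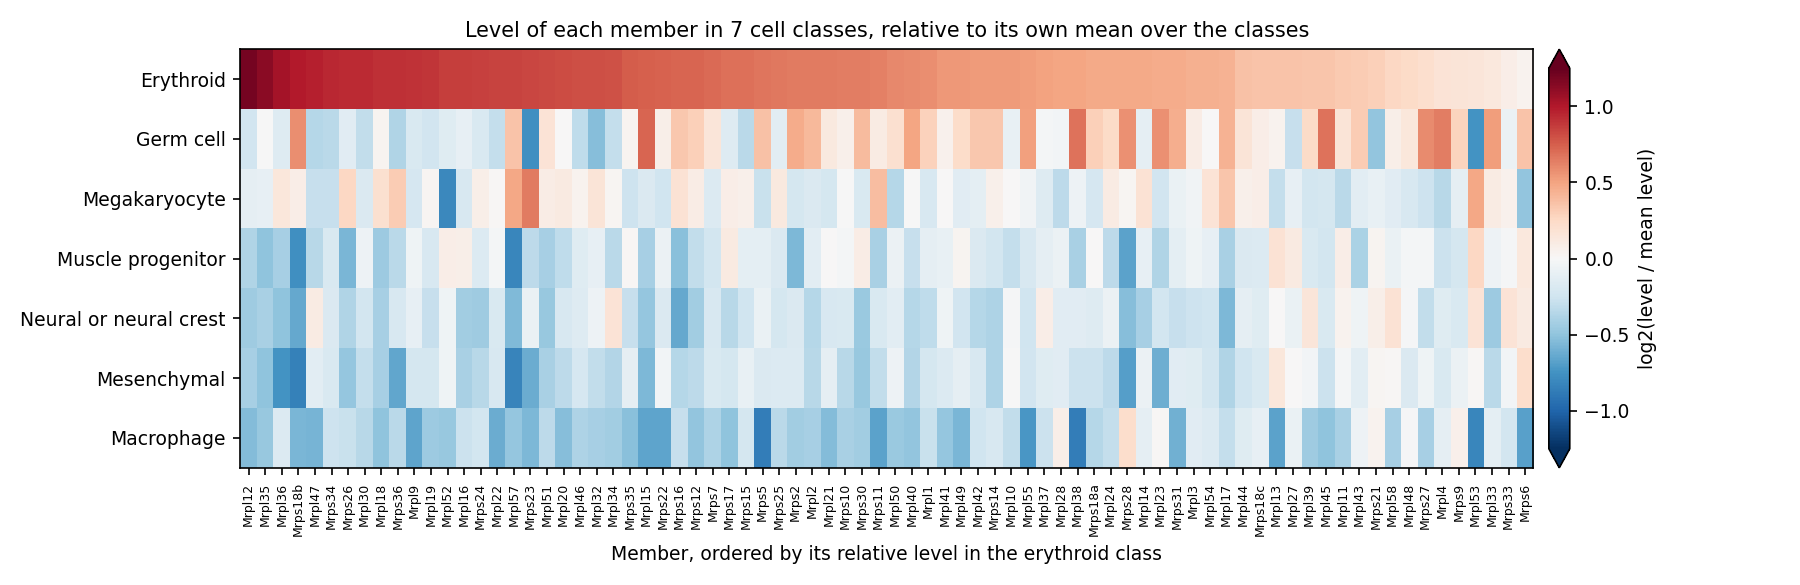
Level of each of the 78 members (columns, ordered by the erythroid value) in 7 cell classes (rows), as log2 of the class mean over its mean across the classes. The erythroid row is the highest for 65 members, and Mrps33 is the most even over these 7 classes, with a ratio of 1.32 between its highest and lowest class.

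The 3 Mrps18 paralogues encode proteins that each take a different place in the same ribosome, and they differed in how much they varied by class. Mrps18b varied 3.59-fold over the 7 classes, whereas Mrps18a stood at 107 CPM in erythroid-like and 60.3 CPM in macrophage-like cells and Mrps18c at 134 CPM in erythroid-like and 91.1 CPM in mesenchymal-like cells. Mrps33, the most even member over the 7 classes, stood at 178, 203, 193 and 187 CPM in erythroid-like cells, at 172, 212, 212 and 211 CPM in neural cells and at 139.7, 159.3, 155.7 and 159.7 CPM in macrophage-like cells. Mrpl53 had 124 CPM in megakaryocyte-like and 98.6 CPM in erythroid-like cells. Mrps36 stood at 188 CPM in erythroid-like, 124 CPM in megakaryocyte-like, 63.6 CPM in mesenchymal-like and 47.5 CPM in endothelial-like cells.

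Between the gates, more members were higher in MMPhigh than lower when all retained cells of a library were summed. In the all-cell sums, 32 members rose and 2 fell in MMPhigh at an adjusted p under 0.05 (edgeR quasi-likelihood test), where 27.3% of all 20357 genes tested rose and 26.5% fell. The members called, 34 of 78, were thus no larger a share than the 53.8% of all genes called, but their direction was uneven. Their median log2 difference was 0.22 against 0.01 over all genes, and 70 of 78 lay above 0. All 34 were higher, or lower, in both MMPhigh libraries than in both MMPlow libraries. The share of all genes separated in this way is not given here, so this only describes the called members. Of the Mrpl genes 23 of 49 rose and none fell, and of the Mrps genes 9 of 29 rose and 2 fell. The summed level was 6231 and 6670 CPM in MMPlow and 7557 and 7109 CPM in MMPhigh, a difference of 882 CPM with an exact permutation p of 0.333, the smallest that 2 against 2 libraries allow. Without MMPhigh 1 the difference was 658.5 CPM. The difference depends on which cells are summed, as the depth of the cells below shows, and without MMPlow 1 the members called were 6 higher and 1 lower, where 18.4% of all genes rose and 18.4% fell.

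The largest rise was that of Mrps23, a small-subunit protein, at 41.8 and 45.6 CPM in MMPlow against 68.9 and 65.2 CPM in MMPhigh (log2 0.65, SE 0.0888, edgeR adjusted p = 0.000459). Mrps36, the 2-oxoglutarate dehydrogenase component, stood at 68.0 and 71.6 against 105 and 103 CPM (log2 0.61, adjusted p = 0.000431). Mrpl47, which lies near the exit of the peptide tunnel, stood at 22.6 and 27.2 against 36.5 and 35.96 CPM (log2 0.57, adjusted p = 0.00252). In each of the 3 genes the gap between the gates was wider than the spread within either gate. Members were named here for being called without overlap between gates, so their separation adds no support to the calls. Mrpl28 stood at 87.3 and 90.4 against 129.6 and 119 CPM (log2 0.52, adjusted p = 0.00163), and Mrps34, a small-subunit protein with no bacterial counterpart, at 56.4 and 61.6 against 86.8 and 77.8 CPM (log2 0.51, adjusted p = 0.00267). The 2 members that fell were both of the small subunit. Mrps6 stood at 52.1 and 54.8 CPM in MMPlow against 40.9 and 35.4 CPM in MMPhigh (log2 -0.45, adjusted p = 0.00579), and Mrps27 at 44.6 and 45.5 against 34.7 and 37.1 CPM (log2 -0.29, adjusted p = 0.0153). Endothelial-like cells made up 46.7% and 45.2% of MMPlow but 0.362% and 0.427% of MMPhigh cells. Among the 7 classes and those with few MMPhigh cells, their mean level was the lowest for Mrps23, Mrps36 (47.5 CPM) and Mrpl28 (62.7 CPM). It was the highest for Mrps6 (70.4 CPM), and neither for Mrpl47, Mrps34 and Mrps27. The part of the makeup of the gates in these differences was not tested. Of the Mrps18 paralogues, Mrps18a rose from 66.4 and 69.5 to 80.9 and 75.4 CPM (log2 0.24, adjusted p = 0.0466). Mrps18b (51.9 and 57.4 against 59.1 and 64.5 CPM, adjusted p = 0.0762) and Mrps18c (89.8 and 98.5 against 100.4 and 99.0 CPM, adjusted p = 0.289) did not pass the test, nor did Mrpl12 (log2 0.23, adjusted p = 0.0684).

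**Figure D3:**
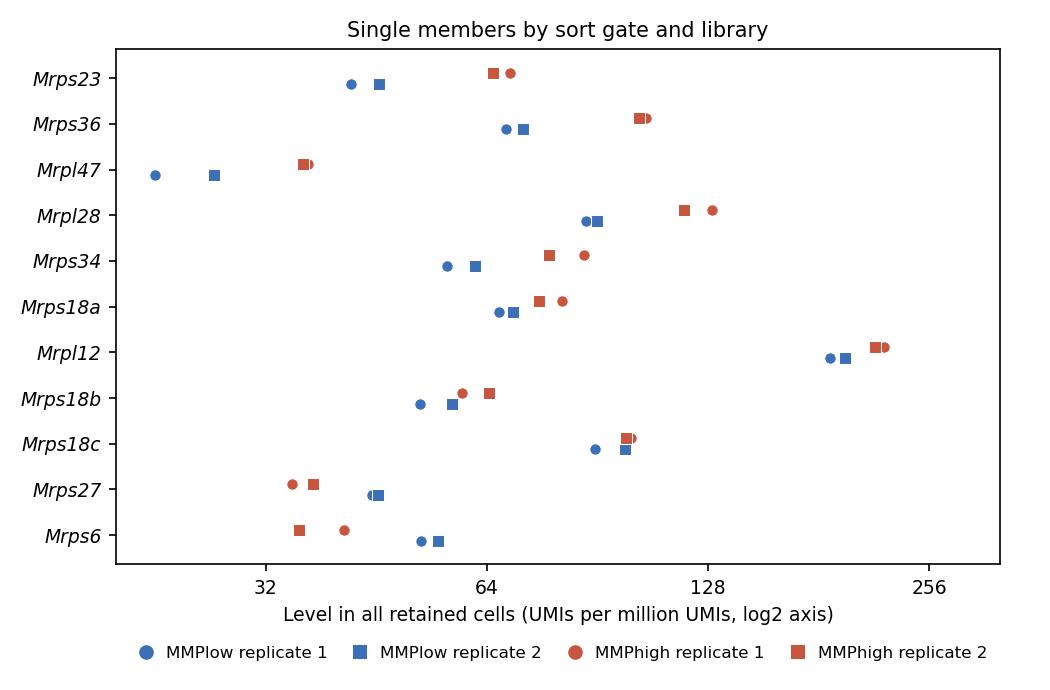
Level in all retained cells, in CPM on a log2 axis, of the 5 members with the largest rise, the 2 that fell, the Mrps18 paralogues and Mrpl12, with 1 point per library coloured by gate. Mrps23, Mrps36, Mrpl47, Mrpl28 and Mrps34 are separated between gates, and Mrps6 and Mrps27 are separated in the other direction, as the rule that named them requires.

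The direction of the all-cell difference turned with the depth of the cells. In cells of 2000 to 3000 UMIs (upper bounds not included) the summed level was 5652 and 5886 CPM in MMPlow and 9056 and 6054 CPM in MMPhigh, and 64 members rose, against 21.4% of all genes. In cells of 3000 to 5000 UMIs it was 5570 and 5502 against 8764 and 5209 CPM, and 11 members rose, against 15.3% of all genes. The high value in both bins is that of MMPhigh 1, where cluster 11 made up 41.0% and 32.4% of the cells. MMPhigh 2 held only 57, 175 and 299 cells in the bins of 2000 to 3000, 3000 to 5000 and 5000 to 10000 UMIs. Results in these bins without MMPhigh 1 therefore rest on few cells of 1 MMPhigh library. Without MMPhigh 1 the first bin had 1 member higher and 1 lower, where 4.16% of all genes rose and 4.6% fell, and the second had 3 lower and none higher, where 11.1% of all genes fell. In cells of 5000 to 10000 UMIs the level was 6654 and 6724 against 7104 and 5116 CPM, 4 members fell, against 13.4% of all genes, and none rose. Without MMPhigh 1, 41 members fell in that bin, against 16.5% of all genes. In cells of 10000 or more UMIs it was 8934 and 9193 CPM in MMPlow against 7243 and 7171 CPM in MMPhigh, and 57 members fell, against 23.2% of all genes, with a median log2 of -0.40, and 50 fell without MMPhigh 1, against 19.3% of all genes. Over all cells of 5000 or more UMIs, 2 members rose and 11 fell, where 25.2% of all genes rose and 22.4% fell. Cells of different depth were also of different classes. Of the cells of 10000 or more UMIs, cluster 4 made up 28.2% and 25.7% in MMPlow but 4.41% and 5.90% in MMPhigh. Within groups tested in that bin the median log2 was 0.10 in erythroid-like cells, -0.11 in mesenchymal-like cells and -0.05 in both cluster 4 and cluster 6. The parts of depth and makeup in these differences were not tested.

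**Figure D4:**
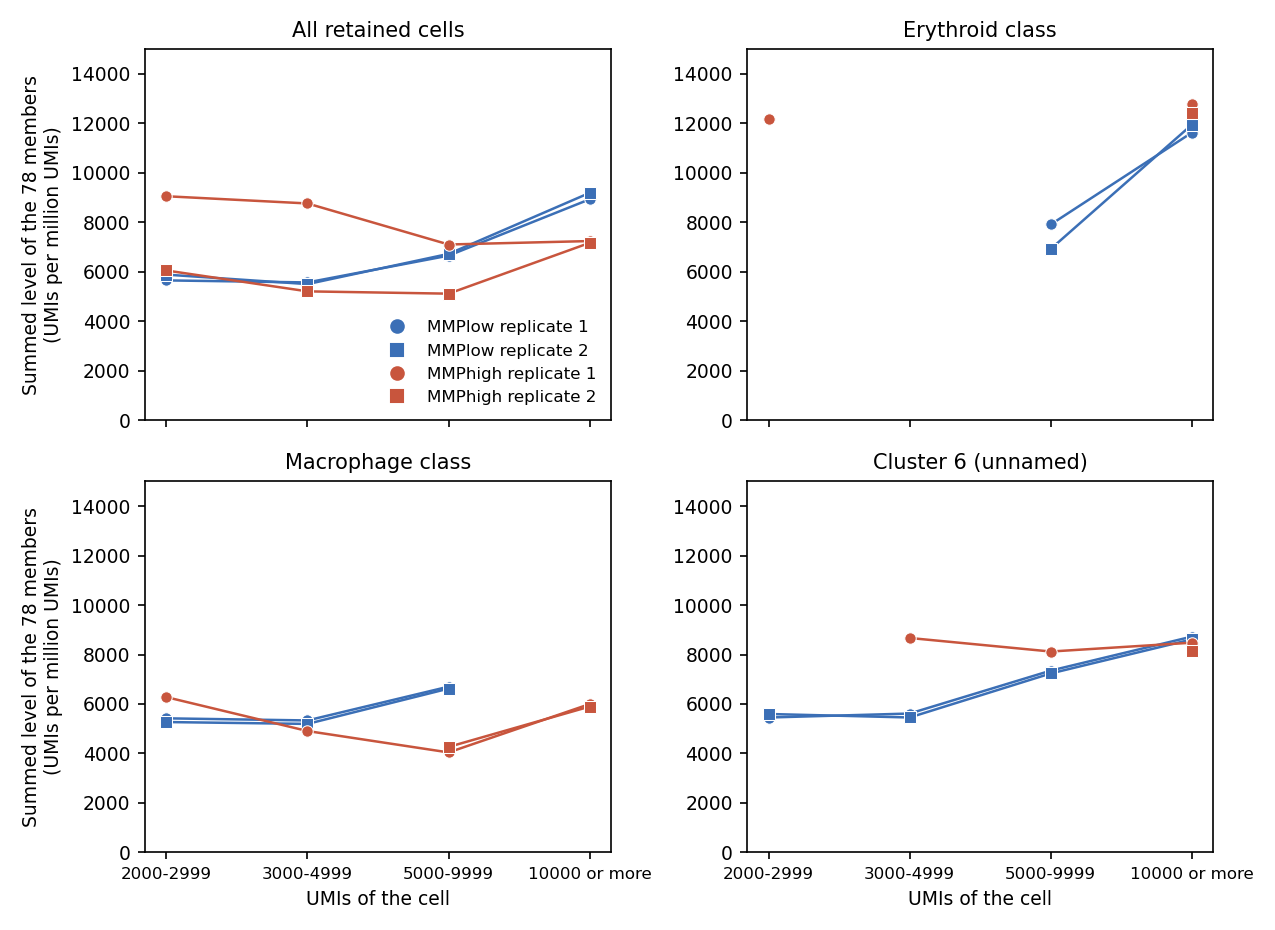
Summed level of the 78 members, in CPM (y axis), against the UMIs of the cell in 4 bins (x axis), 1 line per library coloured by gate, for all retained cells, the erythroid-like class, the macrophage-like class and cluster 6; points of under 20 cells are not drawn. In all cells of 10000 or more UMIs the MMPlow libraries (8934 and 9193) lie above the MMPhigh libraries (7243 and 7171), and in the same panel MMPhigh 1 is the highest library in the bins under 10000 UMIs.

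When the same number of cells of each of 7 classes was summed from every library, 1 member passed the test. Cell numbers were equal, but each class still weighed by its depth, which differed between libraries. Macrophage-like cells had a median of 2692 UMIs in MMPlow 1 and 15390 in MMPhigh 1, and mesenchymal-like cells 3363 and 3901. The mix of UMIs was thus not held equal. Mrpl4, a large-subunit protein that lines the peptide tunnel, stood at 39.3 and 42.9 CPM in MMPlow against 55.4 and 57.6 CPM in MMPhigh (log2 0.54, SE 0.12, edgeR adjusted p = 0.0416). Of all 16057 genes tested in these sums, 2.3% rose. The median log2 over the members was 0.25, and 69 of 78 lay above 0, with 24 members under an unadjusted p of 0.05, as were 24% of all genes. The count of 1 was lost without MMPlow 1 or MMPlow 2, became 12 higher without MMPhigh 1, where 8.76% of all genes rose, and 49 higher and 1 lower without MMPhigh 2, where 16.5% rose and 13.5% fell. It was 5 with the replicate number as a block, where 5.66% of all genes rose, and was 0 when libraries were scaled by their total UMIs.

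In erythroid-like cells 12 members rose in MMPhigh and none fell, 15.4% of the 78, where 5.17% of all 9436 genes tested rose. The median log2 was 0.19. Mrpl47 stood at 29.3 and 44.5 CPM in MMPlow against 74.7 and 76.1 CPM in MMPhigh (log2 0.91, SE 0.18, edgeR adjusted p = 0.000319). Mrpl38, a mitochondrion-specific large-subunit protein, stood at 42.2 and 61.8 against 87.8 and 104 CPM (log2 0.78, adjusted p = 0.000675), and Mrpl37 at 34.0 and 18.1 against 39.3 and 42.5 CPM (log2 0.67, adjusted p = 0.0477). Mrpl47 and Mrpl38 are well apart between gates, and Mrpl37 is the closest to overlap. They too were named for not overlapping, so that separation adds no support to the calls. Mrps34 stood at 88.0 and 111 against 179 and 156 CPM (log2 0.66, adjusted p = 0.00103), and Mrpl3, a core protein of the large subunit, at 56.3 and 64.8 against 99.1 and 101 CPM (log2 0.64, adjusted p = 0.00278). Mrpl12 (log2 0.39, adjusted p = 0.0302) and Mrps18b (log2 0.44, adjusted p = 0.045) also rose, while Mrps18a (log2 0.35, adjusted p = 0.103), Mrps18c (log2 0.12, adjusted p = 0.607) and Mrps36 (log2 0.07) did not pass the test. The other members called were Mrpl15, Mrps22, Mrpl22, Mrpl40 and Mrpl44. In cells of 5000 or more UMIs 8 members rose, against 4.64% of all genes, and in those of 10000 or more 4 rose, against 2.28% of all genes, at a summed level of 11631 and 11952 CPM against 12782 and 12435 CPM. The count fell to 1 without MMPlow 1 and to 3 without MMPlow 2, where 0.995% and 0.55% of all genes rose. It was 0 with cells thinned to 2000 UMIs, was 3 with DESeq2, and was 20 when libraries were scaled by their total UMIs, where 8.15% of all genes rose. At a clustering resolution of 0.5 it was 67, where 16.6% of all genes rose, but the class then held 1236, 1200, 147 and 336 cells, most of them in a cluster led by Slc25a21, Ermap, Cpox and Gm15915, genes that include leading genes of cluster 4.

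The gates also differed in which erythroid cells they held. Cluster 37, led by embryonic globins, held 29 of 87, 36 of 110, 52 of 107 and 3 of 160 of the class, and the median cell had 9832 and 12823.5 UMIs in MMPlow against 9827 and 62068 UMIs in MMPhigh. The 14 endothelial markers summed to 432 and 430 CPM in MMPlow and 125 and 122 CPM in MMPhigh, 13 of them lower in both MMPhigh libraries. Within cluster 29 alone, 4 members rose and none fell, where 2.02% of 9007 genes rose. These were Mrpl47 (33.5 and 47.7 against 75.2 and 76.2 CPM, log2 0.86, adjusted p = 0.00732), Mrpl38 (47.2 and 68.8 against 89.97 and 104 CPM, log2 0.72), Mrpl3 (67.0 and 70.7 against 101 and 101 CPM, log2 0.55) and Mrps34 (108 and 125 against 180.3 and 156 CPM, log2 0.51). Each is also among the 12 of the class, and their levels in MMPlow were above those of the whole class. The count in cluster 29 was 1 without MMPlow 1 and 2 without MMPlow 2, where 0.674% and 0.21% of all genes rose, and 0 with cells thinned to 2000 UMIs. The median cell had 11352 and 14773 UMIs in MMPlow against 54997 and 62951 in MMPhigh. The parts of depth and of the endothelial markers in these differences were not tested.

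In germ cell-like cells 6 of the 77 members tested rose and none fell, where 4.35% of 6782 genes rose, and the median log2 was 0.57. Mrps12, which lies at the decoding centre, stood at 75.4 and 67.5 CPM in MMPlow against 191 and 192 CPM in MMPhigh (log2 1.57, SE 0.318, adjusted p = 0.00389). Mrpl15 stood at 123 and 180.1 against 293 and 305 CPM (log2 1.11, adjusted p = 0.0118), and Mrpl30 at 104 and 60.0 against 189 and 165 CPM (log2 1.29, adjusted p = 0.0183). Mrpl39 (9.43 and 22.5 against 53.0 and 66.0 CPM, adjusted p = 0.0384) and Mrps31 (37.7 and 15.01 against 95.0 and 68.1 CPM, adjusted p = 0.0412) started from low counts in 29 and 30 MMPlow cells. The other calls also rested on few UMIs in MMPlow 1 and MMPlow 2. These were 8 and 9 for Mrps12, 11 and 8 for Mrpl30, 13 and 24 for Mrpl15 and 18 and 20 for Mrpl42, the remaining member called. Germ cell markers themselves summed to 1848 and 2379 CPM in MMPlow against 4838 and 4756 CPM in MMPhigh, and endothelial markers to 1895 and 765 against 204 and 214 CPM. Their part in the members' difference was not tested. The count was 0 without MMPlow 1, 0 with cells thinned to 2000 UMIs and 1 with DESeq2, and 12 of 58 tested without MMPhigh 2, where 10.1% of all genes rose.

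In macrophage-like cells 30 members rose and 2 fell, where 18.5% of 12535 genes rose and 18.3% fell, but the summed level was nearly level between the gates, at 5676 and 5819 CPM in MMPlow and 5828 and 5867.5 CPM in MMPhigh. The number and direction of the calls moved with the scaling: TMM put the median log2 of the members at 0.23, while scaling by total UMIs put it at 0.01, moved the median of all genes by -0.22 and gave 9 members higher and 7 lower, where 9.88% of all genes rose and 31.1% fell. Mrpl4 stood at 39.3 and 43.3 CPM against 56.1 and 58.7 CPM (log2 0.69, adjusted p = 0.000354), Mrpl16 at 29.7 and 29.7 against 42.2 and 38.4 CPM (log2 0.64), and Mrps23 at 29.7 and 39.8 against 47.7 and 46.7 CPM (log2 0.62). Mrpl24 stood at 57.3 and 57.1 against 75.5 and 73.3 CPM and Mrps24 at 106 and 125 against 154 and 143 CPM. These 5 were named for being called and higher in both MMPhigh libraries, so that separation adds no support to the calls. In the other direction Mrps5, which lies at the mRNA entry, stood at 89.5 and 70.9 against 42.2 and 53.6 CPM (log2 -0.48, adjusted p = 0.0116), and Mrps35 at 42.3 and 44.3 against 26.9 and 30.7 CPM (log2 -0.36, adjusted p = 0.0468). The gates drew on different macrophage-like cells: cluster 9 held 598 and 682 of the MMPlow cells of the class but 8 and 1 of the MMPhigh cells, and clusters 15 and 25 held most of the latter. Within these 2 clusters fewer members were called, in shares no larger than those of all genes. In cluster 15, 1 member rose and 3 fell, where 4.72% of all genes rose and 6.22% fell, with a median log2 of -0.04. Mrps28 stood there at 69.2 and 94.4 against 135.5 and 120 CPM (log2 0.56, adjusted p = 0.0141), while Mrps35 (log2 -0.63), Mrpl52 (log2 -0.44) and Mrps12 (log2 -0.44) fell. In cluster 25 only Mrps12 passed, at 84.3 and 115 against 54.6 and 56.1 CPM (log2 -0.89, adjusted p = 0.0438), where 1.95% of all genes fell, and the median log2 was -0.27. No member was called in cluster 15 without MMPlow 1 or MMPlow 2, and none in cluster 25 without MMPhigh 1. Median depth was 2692 and 3031.5 UMIs in MMPlow against 15388.5 and 22281 UMIs in MMPhigh, Malat1 stood at 8257 and 7455 against 4776 and 4817 CPM, and the endothelial markers summed to 952 and 789 against 109 and 107 CPM. In cells of 5000 or more UMIs, 1 member rose and 8 fell, where 7.06% of all genes rose and 7.74% fell. In cells of 5000 to 10000 UMIs 34 fell, against 12.6% of all genes, at 6700 and 6622 CPM in MMPlow and 4040 and 4263 CPM in MMPhigh, and 1 rose. In those cells the RNAs encoded by mitochondrial DNA made up 3.02% and 3.23% of UMIs in MMPlow against 9.26% and 10.3% in MMPhigh, and their part in the result was not tested. Without MMPlow 1 the members called in the class numbered 10, all higher, where 10.3% of all genes rose.

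In megakaryocyte-like cells 5 members rose and none fell, where 3.44% of 11985 genes rose. Mrps23 stood at 61.8 and 72.5 CPM in MMPlow against 125 and 120 CPM in MMPhigh (log2 0.95, SE 0.168, adjusted p = 0.00219), and Mrpl49 at 32.03 and 32.3 against 52.7 and 52.3 CPM (log2 0.80, adjusted p = 0.0128). Mrpl28 (76.6 and 75.6 against 106 and 110 CPM), Mrps36 (96.7 and 109 against 147 and 145 CPM) and Mrpl32 (61.8 and 77.95 against 95.6 and 102 CPM) rose by log2 0.60, 0.59 and 0.59. Of the 189 MMPhigh 2 cells of the class, 94 fell in cluster 38, which held 0, 1 and 0 cells of the other libraries. In cluster 5 alone, which holds the remaining cells of the class, 18 members rose and none fell, where 4.53% of 11591 genes rose, with a median log2 of 0.43. The median depth there was 2937 and 3827 UMIs in MMPlow against 3520 and 35431 UMIs in MMPhigh. Mrps23 stood there at 61.8 and 72.6 against 125 and 129 CPM (log2 1.04, adjusted p = 0.00023). In cells of 3000 to 5000 UMIs 5 members of the class rose and none fell, where 312 of 8341 genes rose, with a median log2 of 0.61. In cells of 5000 or more UMIs no member of the class passed the test, where 0.657% of all genes rose, and none did in cluster 5, where the median log2 was 0.01. The class held 1 called member without MMPlow 1, 3 without MMPhigh 2 and 10 without MMPhigh 1, where 0.588%, 2% and 7.65% of all genes rose. Cluster 5 held 1 without MMPlow 1, 2 without MMPhigh 2 and 4 with scaling by total UMIs, where 0.435%, 1.99% and 2.42% of all genes rose, and 0 with cells thinned to 2000 UMIs. Malat1 in the class stood at 13678 and 11785 CPM in MMPlow against 6262 and 5150 CPM in MMPhigh, and its part in the result was not tested.

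No member passed the test in mesenchymal-like cells, where 14% of all genes did, in muscle progenitor-like cells, where 0.727% did, or in neural or neural crest-like cells, where 1.99% did. At an unadjusted p under 0.05 by edgeR, 14, 3 and 4 members passed in the 3 classes, against 28.3%, 9.37% and 17.1% of all genes. DESeq2 called none at an adjusted p under 0.05 in any of them, but the share of all genes it called is not given here. The median log2 of the members was 0.12, 0.06 and 0.10 in the 3 classes. In simulated sums of these classes the edgeR test recovered 4.5%, 0% and 0% of genes changed by log2 0.5. The simulation gave every gene the same spread and changed 200 genes picked at random. In all-cell sums simulated likewise 12.5% were recovered, while 34 of 78 members were called in the real all-cell sums. It thus cannot decide whether changes of the size of these medians would be missed. In mesenchymal-like cells the level in MMPhigh 1 (6803 CPM) lay above and that in MMPhigh 2 (5607 CPM) below both MMPlow libraries (5944 and 6086 CPM). In this class 42 members rose without MMPhigh 2, where 11.5% of all genes did, while 2 rose and 6 fell without MMPhigh 1, where 9.85% rose and 15.4% fell. The libraries drew on different mesenchymal-like clusters: cluster 22, at 8869 ± 541 CPM, held 424 of the 719 cells of MMPhigh 1 but 99 of 1998, 150 of 2211 and 51 of 471 cells of MMPlow 1, MMPlow 2 and MMPhigh 2. Within cluster 22 no member passed, where 1.14% of all genes did, with 3 under an unadjusted p of 0.05, against 9.36% of all genes. Clusters 7, 8 and 10 had medians of -0.09, -0.05 and -0.05 and 1, 1 and 3 members lower with none higher, where 6.62%, 7.38% and 7.43% of all genes fell. These were Mrpl33 in cluster 7 (log2 -0.48), Mrpl57 in cluster 8 (log2 -0.56), and Mrpl57 (log2 -0.63), Mrps5 (log2 -0.45) and Mrpl12 (log2 -0.40) in cluster 10. None of them was called without MMPlow 1.

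In neural or neural crest-like cells 8 members were called without MMPhigh 2, all higher, where 6.63% of all genes rose. Here cluster 18, at 7278 ± 893 CPM, held 624 of the 867 cells of MMPhigh 1 but 30 of 339, 38 of 392 and 58 of 337 cells of MMPlow 1, MMPlow 2 and MMPhigh 2. In it no member passed the edgeR test, where 0% of all genes did, with 3 under an unadjusted p of 0.05, against 7% of all genes, and a median log2 of 0.36. Cluster 13 stood at 5848 ± 345 CPM with a median log2 of 0.00388, and Mrpl53 alone rose in it (76.8 and 74.4 against 119 and 99.9 CPM, log2 0.58, adjusted p = 0.0469), where 3.71% of all genes rose. That call was lost without MMPlow 1 or MMPlow 2.

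In endothelial-like cells, with 15 and 14 MMPhigh cells, no member passed, where 1.19% of all genes did, and the median log2 was -0.12. There 10 members were under an unadjusted p of 0.05, against 12.5% of all genes, and none was called by DESeq2. The share of all genes called by DESeq2 is not given here for this class or for haematopoietic progenitor-like cells. Among haematopoietic progenitor-like cells, with 15 and 31 MMPhigh cells, none passed either, where 1.61% of all genes did. The 2 MMPhigh libraries were far apart there, at 4718 and 8416 CPM against 5329 and 5936 CPM in MMPlow. Without MMPhigh 1, 68 members were called higher, where 15.6% of all genes were, whereas with all libraries 34 were under an unadjusted p of 0.05, against 19.7% of all genes, and none was called by DESeq2. In epithelial or mesonephric-like cells, with 13 and 16 MMPhigh cells, 2 members fell, where 5.98% of all genes did: Mrpl36 (106 and 111 against 32.8 and 67.5 CPM, log2 -1.09, adjusted p = 0.0324) and Mrpl51 (174 and 158 against 83.6 and 102 CPM, log2 -0.83, adjusted p = 0.0242). Neither was called without MMPlow 1 or MMPlow 2, and 5 members fell without MMPhigh 2, where 9.02% of all genes did.

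The unnamed cluster 6, led by Mndal, Ccr2, Gria3, Emb and Plac8, held the most called members of the classes and clusters compared with the settings used throughout, though other settings gave more in other cells. In it 65 of 78 members rose and none fell, where 16.3% of 12050 genes rose, and the summed level was 6546 and 6963 CPM in MMPlow against 8458 and 8160 CPM in MMPhigh. Mrps34 stood at 58.6 and 65.8 against 117 and 103 CPM (log2 1.06, SE 0.127, adjusted p = 3.41e-05), and Mrps23 at 48.0 and 48.2 against 74.0 and 80.5 CPM (log2 0.95, adjusted p = 6.76e-05). Mrpl43, Mrpl4 and Mrpl39 followed, with log2 0.87, 0.86 and 0.85. The 3 Mrps18 paralogues rose by log2 0.57, 0.69 and 0.43 and Mrpl12 by log2 0.49. Scaling by total UMIs gave 30 called members, all higher, where 7.35% of all genes rose, with the median log2 of all genes at -0.29. In cells of 5000 or more UMIs 6 rose, against 3.38% of all genes. In cells of 10000 or more UMIs none was higher and 1 was lower, where 3.87% of all genes fell, with a median log2 of -0.05 and summed levels of 8725 and 8613 CPM in MMPlow against 8478 and 8150 CPM in MMPhigh. The median cell had 3042 and 3888 UMIs in MMPlow against 8210 and 34865 in MMPhigh, Malat1 stood at 6034 and 5851 against 2960 and 2664 CPM, and the 14 endothelial markers, all lower in both MMPhigh libraries, summed to 850 and 714 against 179 and 148 CPM. Their part in the result was not tested.

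Cluster 4 had 32 members higher and none lower, where 8.02% of 12152 genes rose, and all 78 had a log2 above 0, with a median of 0.49. Mrps34 stood at 78.1 and 96.0 CPM against 130 and 137 CPM (log2 0.86, adjusted p = 0.00187), and Mrpl38, Mrpl47, Mrpl22 and Mrps2 had log2 of 0.85, 0.84, 0.83 and 0.82. Mrps34, Mrpl38 and Mrpl47 are thus among the largest rises both here and in the erythroid-like class. In cluster 4 the median cell had 3050 and 4772 UMIs in MMPlow against 31819 and 52214.5 in MMPhigh. In its cells of 10000 or more UMIs the summed level was 11703 and 12122 CPM in MMPlow against 11546 and 11299.5 CPM in MMPhigh, with 1 member higher and 2 lower, where 3.86% of all genes rose and 5.46% fell, and a median log2 of -0.05. In those of 5000 or more UMIs 2 members rose, against 3.45% of all genes. The count was 5 without MMPhigh 2, where 1.35% of all genes rose, 16 without MMPlow 1, where 5% of all genes rose, 17 without MMPhigh 1, where 4.35% rose, and 68 without MMPlow 2, where 16% rose. It was 11 with scaling by total UMIs, where 2.81% of all genes rose. Of the 18 clusters compared, the median log2 of the members was above 0 in 8 and below 0 in 10. In clusters 17 and 24 the members called were lower, in shares no larger than those of all genes when cells of every depth were summed. In cluster 17, 4 members fell and none rose, where 5.49% of all genes fell: Mrpl14, a target of the silencing factor Malsu1 (100.1 and 89.3 against 41.7 and 52.2 CPM, log2 -0.97, adjusted p = 0.0142), Mrpl12 (140.5 and 133 against 71.5 and 79.3 CPM, log2 -0.84), Mrpl36 (log2 -0.79) and Mrpl33 (log2 -0.76). None of the 4 was called without MMPlow 1 or MMPlow 2. In cluster 24, 2 members fell and none rose, where 4.39% of all genes fell: Mrpl12 (174 and 127.8 against 74.5 and 84.5 CPM, log2 -0.89, adjusted p = 0.00291) and Mrpl14 (99.5 and 103 against 62.5 and 51.6 CPM, log2 -0.86, adjusted p = 0.0101). Among cells of 5000 to 10000 UMIs alone, 6 of 66 members tested fell in cluster 17, where 6.19% of all genes fell, and 9 of 42 in cluster 24, where 9.53% fell, with median log2 of -0.61 and -0.95 and none higher.

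**Figure D5:**
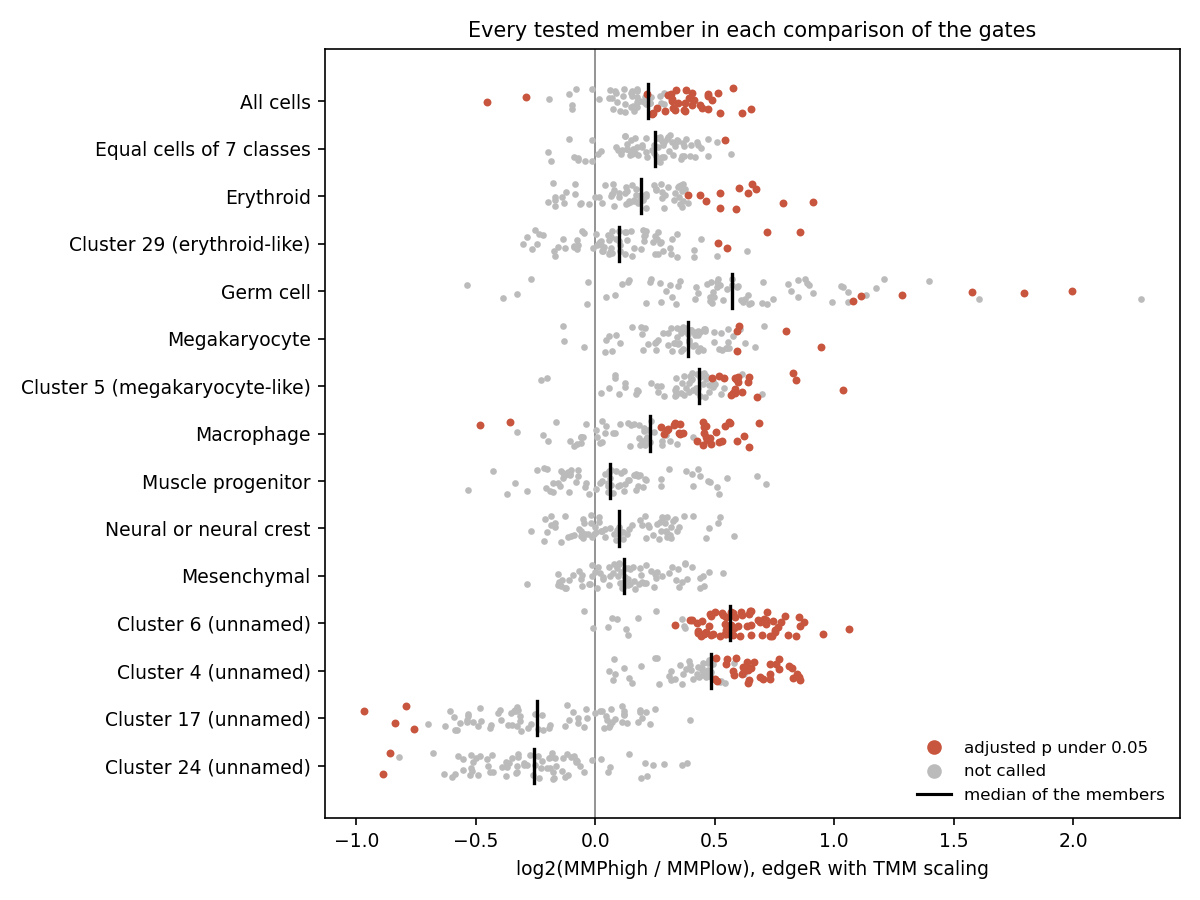
log2 of MMPhigh over MMPlow of every tested member (points, x axis) in comparisons of the gates (rows, without the classes with few MMPhigh cells), from edgeR with TMM scaling; coloured points had an adjusted p under 0.05, and black bars are the medians. Cluster 6 has 65 coloured points, all above 0, and the coloured points of clusters 17 and 24 are below 0.

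Whether the gate difference depended on the class was tested in a fit over the 7 classes with the library as a block. It did for 15 of the 78 members, where 17.9% of 15866 genes passed. Mrps12 had the smallest edgeR adjusted p, 0.00189, with a log2 of 1.57 in germ cell-like cells, where it had 8 and 9 UMIs in the MMPlow libraries. Mrpl12 (adjusted p = 0.0166) is another: its log2 was 0.81 in germ cell-like, 0.39 in erythroid-like and -0.05 in macrophage-like cells, and it passed the test within the erythroid-like class. The count was 0 without MMPlow 1 or without MMPlow 2 and 48 without MMPhigh 1, where 34.3% of all genes passed. It was 67 at a clustering resolution of 0.5, where 38.8% of all genes passed, and 1 at a resolution of 2, where 9.21% did.

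Genes that build and run the mitochondrial ribosome were also compared in the all-cell sums, from lists chosen by function, where 27.3% of all genes rose and 26.5% fell, so that the counts of most lists are near those shares or below them. Of 5 mitoribosomal proteins with other symbols 2 rose, Aurkaip1 (log2 0.42, adjusted p = 0.00952) and Gadd45gip1 (log2 0.33, adjusted p = 0.0249). Of 27 assembly factors 8 rose and 1 fell, with a median log2 of 0.18. Mpv17l2, an inner membrane protein needed for assembly, rose from 15.2 ± 0.217 to 25.1 ± 0.364 CPM (SD, n = 2 libraries each; log2 0.76, edgeR adjusted p = 0.000145), and C1qbp, a matrix protein needed for mitochondrial translation, rose from 198 to 278 CPM (log2 0.52). Mrm2, an rRNA methyltransferase, rose (log2 0.49), and Rpusd4, a pseudouridine synthase, fell (log2 -0.26). Of 16 translation factors 2 rose, the elongation factors Tsfm (log2 0.42) and Tufm (log2 0.31), and 3 fell. Taco1, the translational activator of cytochrome oxidase subunit I, fell from 109 ± 29.3 to 28.3 ± 1.10 CPM (SD, n = 2 libraries each; log2 -1.91, edgeR adjusted p = 0.000314), Mtrf1l, a release factor, fell (log2 -0.40) and so did the elongation factor Guf1 (log2 -0.34). Of 20 genes for mitochondrial aminoacyl-tRNAs 1 rose, Gatc (log2 0.52), and 5 fell, among them Iars2 (log2 -0.47), Wars2 (log2 -0.44) and Mars2 (log2 -0.34).

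Of 13 regulators of mitochondrial transcription and biogenesis 4 rose and 5 fell. Ppargc1a, a transcriptional coactivator, rose from 2.15 to 3.58 CPM (log2 0.76), and Tfb2m, a mitochondrial transcription factor, and the nuclear receptor Esrra rose by log2 0.35 and 0.33. Gabpb1, the partner of the ETS factor that binds the motif shown in the promoters of Mrps26 and Mrps27, fell from 56.9 to 38.1 CPM (log2 -0.54), and Ppargc1b and Mycn fell (log2 -0.42 and -0.39). In the same all-cell sums 27.3% of all genes rose and 26.5% fell. Of 82 nuclear OXPHOS subunits tested there 22 rose and none fell (median log2 0.15), and of 83 cytosolic ribosomal proteins 7 rose and 1 fell (median 0.13). Of the 13 proteins encoded by mitochondrial DNA 5 fell and none rose (median -0.29). In erythroid-like cells the last list went the other way, with 7 of 13 higher and none lower (median 0.47), beside 10 of 78 OXPHOS subunits higher and 4 lower, where 5.17% of all genes rose and 8.58% fell. In macrophage-like cells 45 of 80 OXPHOS subunits rose and 1 fell, and 41 of 82 cytosolic ribosomal proteins rose, where 18.5% of all genes rose and 18.3% fell. Scaling by total UMIs gave 17 and 14 higher and 1 of each lower, where 9.88% of all genes rose and 31.1% fell. In cluster 6 58 of 81 OXPHOS subunits and 63 of 82 cytosolic ribosomal proteins rose with the members, while 4 mitochondrially encoded genes fell, where 16.3% of all genes rose and 15.2% fell. Scaling by total UMIs gave 31 and 37 higher, with 2 OXPHOS subunits and 8 mitochondrially encoded genes lower, where 7.35% of all genes rose and 31.1% fell. In the equal-class sums 5 OXPHOS subunits rose, where 2.3% of all genes did. No cytosolic ribosomal protein and no assembly factor passed the edgeR test there, with 13 and 3 under an unadjusted p of 0.05, against 24% of all genes.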

How the data were processed

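Cell Ranger matrices of 4 libraries were used, as the authors deposited them: whole-number UMI counts of each gene in each barcode, not normalized. The matrices name Cell Ranger 7.0.1 per the file headers, while Cell Ranger 2.1.1 and mm10 are named per the submitters' processing notes. Barcodes numbered 59928 and 23715 in MMPlow and 13939 and 4288 in MMPhigh, with 120168395, 102083810, 51800709 and 112739406 UMIs. Cells with at least 2000 UMIs, at least 1000 genes and at most 25% mitochondrial UMIs were kept (16700, 19579, 4403 and 3486). Scrublet in scanpy 1.11.5 marked 2, 996, 0 and 68 doublets, so that it did not work in 2 libraries, and the 6% of cells with the highest scores were removed from each library instead.

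Cells were clustered by Leiden (resolution 1) on 30 principal components of 2000 variable genes without the members, which gave 40 clusters, 29 of them named from marker lists as 11 cell classes. UMIs were summed per library over all cells, over equal numbers of cells from the 7 classes that held 20 or more cells of each library, and within classes or the 18 clusters that also held 20 or more cells of each. Classes of 10 to 20 cells in a library, single clusters and the bins of depth were added after seeing the data. Sums were tested with edgeR 4.0.16 (quasi-likelihood, TMM, filterByExpr, robust), adjusted by Benjamini-Hochberg over all genes tested, and with DESeq2 1.42.0 as an alternative. SE is the absolute log2 divided by the root of F. The scripts were tested on simulated data.

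The symbol rule fixes which genes are members, with no value used, but the decision to describe this gene family, and the gene lists, were made with earlier results of these data known. Named are the 10 highest members, up to 5 called members per direction and comparison whose gates do not overlap, the 5 that differ most between classes, and Mrps18a, Mrps18b, Mrps18c, Mrpl12 and Mrps36. Of each pathway list, up to 3 called genes per direction are named. Mrpl53, Mrps33 and the genes that complete a list of called members were named after their values were seen. Fewer cells of a type and less RNA per cell cannot be told apart in the all-cell sums, and UMI counts cover only what was captured.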

Additional observations from a re-analysis of the deposited data

Results flagged for a closer look

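The gate difference depended on the cell class, by the test of the class-by-gate terms, for 15 members at an adjusted p under 0.05 (edgeR quasi-likelihood test with a library block), where 17.9% of all genes passed, near the 19.2% of members. The adjusted p was 0.00189 for Mrps12, 0.00614 for Mrpl42, 0.00856 for Mrpl15, 0.00933 for Mrpl20, 0.0136 for Mrps24, 0.0166 for Mrpl12, 0.0249 for Mrpl40, 0.0252 for Mrpl16, 0.0295 for Mrps18b, 0.0329 for Mrpl51, 0.0401 for Mrpl3, 0.0414 for Mrps28, 0.0448 for Mrpl30, 0.0466 for Mrpl36 and 0.0479 for Mrps31. For 12 of the 15 the highest log2 difference among the 7 classes was that of germ cell-like cells, the class with the fewest cells. In Mrps12 it was 1.57 there and lay between -0.11 and 0.40 in the other 6 classes, and in Mrps31 it was 1.79 there and -0.18 in erythroid-like cells. The germ cell-like sums of MMPlow 1 and MMPlow 2 held 8 and 9 UMIs of Mrps12 and 4 and 2 of Mrps31. Mrps18b differed otherwise, with log2 0.45 in macrophage-like, 0.44 in erythroid-like and -0.14 in neural or neural crest-like cells. Mrps28 had its lowest value in germ cell-like cells, at log2 -0.33. Germ cell-like cells of MMPlow numbered 29 and 30, and leaving out MMPlow 1 or MMPlow 2 left none of the 15. The count was 67 and 1 at clustering resolutions of 0.5 and 2, where 38.8% and 9.21% of all genes passed.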

How the results depend on the processing

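Percentages in parentheses are the share of all genes called in the same fit, in either direction. In the all-cell sums the count of 34 members called (53.8%) became 13 (47.6%) in cells of 5000 or more UMIs, 19 (42.3%) with cells thinned to 2000 UMIs and 6 (45%) with the looser filter of 1000 UMIs and 500 genes. It was 64 (48.9%), 11 (28.3%), 4 (30.1%) and 57 (49.5%) in cells of 2000 to 3000, 3000 to 5000, 5000 to 10000 and 10000 or more UMIs, and 7 to 46 (36.9% to 51.1%) with 1 library left out. Without MMPhigh 1 these bins gave 2 (8.76%), 3 (21.6%), 41 (32.8%) and 50 (41.8%). The summed difference of 882 CPM was -215 CPM in cells of 5000 or more UMIs, 506 CPM with the looser filter, 1218 CPM with thinned cells and 419 CPM with equal numbers of cells per cluster. In the 4 bins of depth it was 1785, 1450, -579 and -1857 CPM, and with 1 library left out 658 to 1106 CPM. Replicate numbers are shared between the gates, but the labels do not say that they pair the libraries, and same-numbered libraries had correlations of their deviations from the gate means of 0.121 in the all-cell sums and from -0.0264 to 0.186 within classes, which is over 0.1 in some comparisons and not in others. With the replicate number as a block the counts were 29 (52.6%) in all cells, 5 (15.2%) in equal-class sums, 1 (15.7%) in mesenchymal-like cells, 55 (26.2%) in cluster 4, 8 (14.7%) in cluster 17, 38 (19.2%) in cluster 5, 2 (11.9%) in cluster 7, 1 (8.99%) in cluster 10 and 0 (3.78%) in cluster 25, and within 1.5 times the unblocked count elsewhere. In clusters 4 and 5 the unblocked counts were 32 (19%) and 18 (11.9%).

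In equal-class sums the count of 1 (7.78%) became 0 (8.91%) with total UMIs in place of TMM, 0 (4.67%) with a filter of 10 CPM, 0 (8.31%) with the caller's own doublets, 0 (7.51%) with another seed, 14 (11.3%) with no filter, 3 (7.2%) in cells of 5000 or more UMIs, 2 (11.9%) with thinned cells, 10 (12.9%) and 15 (15.9%) at clustering resolutions 0.5 and 2, and 0 to 50 (0% to 30%) with 1 library left out. With 1 library left out the counts were 1 to 12 (2.54% to 13.2%) in erythroid-like, 0 to 12 (0.13% to 12.9%) in germ cell-like, 10 to 26 (20.3% to 33.2%) in macrophage-like, 1 to 10 (2.07% to 16.6%) in megakaryocyte-like, 0 to 42 (3.18% to 25.3%) in mesenchymal-like, 0 to 8 (0.014% to 13.6%) in neural, 0 to 5 (5.11% to 17.1%) in epithelial or mesonephric-like and 0 to 68 (0.342% to 28.4%) in haematopoietic progenitor-like cells. They were 5 to 68 (6.14% to 29.9%) in cluster 4, 1 to 22 (2.3% to 16%) in cluster 5, 50 to 56 (19.4% to 26.2%) in cluster 6, 0 to 5 (1% to 10.3%) in cluster 17, 2 to 3 (5.41% to 7.34%) in cluster 24 and 1 to 4 (0.832% to 6.66%) in cluster 29. In mesenchymal-like clusters 7, 8, 10 and 22 they were 0 to 4 (4.75% to 12.8%), 0 to 6 (4.59% to 17.8%), 0 to 8 (5.64% to 12.1%) and 0 to 1 (0.483% to 6.57%), and in clusters 13, 15 and 25 they were 0 to 5 (2.82% to 20.2%), 0 to 5 (1.5% to 10.7%) and 0 to 1 (2.88% to 3.71%). For the class-by-gate terms they were 0 to 48 (2.06% to 34.3%). Such a fit leaves 1 library in a gate, whose spread is assumed to be that of the other gate.

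Scaling by total UMIs gave 20 (15.6%) called members in erythroid-like cells, 16 (41%) in macrophage-like cells, 11 (22.5%) in cluster 4, 30 (38.4%) in cluster 6, 4 (12.2%) in cluster 5, 2 (9.59%) in cluster 7 and 2 (11%) in cluster 8. RLE size factors gave 8 (9.68%) in megakaryocyte-like and 1 (13.9%) in mesenchymal-like cells. With no filter on low counts there were 20 (8.09%) in erythroid-like, 17 (4.64%) in germ cell-like, 12 (8.47%) in megakaryocyte-like, 8 (12.9%) in mesenchymal-like, 1 (4.76%) in neural, 4 (9.01%) in epithelial or mesonephric-like and 10 (3.87%) in haematopoietic progenitor-like cells. DESeq2 called 3 (5.33%) in erythroid-like, 1 (4.11%) in germ cell-like, 15 (23.1%) in macrophage-like, 1 (4.98%) in megakaryocyte-like and 0 (5.38%) in epithelial or mesonephric-like cells. Thinning gave 0 (0.546% to 6.22%) in erythroid-like, germ cell-like and epithelial or mesonephric-like cells and in clusters 29, 5, 7, 8, 10, 13, 15 and 25, 13 (28.5%) in macrophage-like cells, 6 (4.83%) in cluster 4, 33 (17.1%) in cluster 6 and 1 (6.69%) in cluster 24. Cells of 5000 or more UMIs gave 9 (14.8%) in macrophage-like cells, 0 (2.32%) in megakaryocyte-like cells, 0 (2.9%) in cluster 5, 2 (8.88%) in cluster 4, 6 (9.94%) in cluster 6, 3 (6.26%) in cluster 7, 0 (6.04%) in cluster 8, 0 (7.36%) in cluster 13, 5 (7.86%) in cluster 10 and 2 (6.8%) in cluster 15. Cells of 10000 or more UMIs gave 4 (6.23%), all higher, in erythroid-like cells, 1 higher and 2 lower of 3 (9.32%) in cluster 4 and 1 (5.84%), lower, in cluster 6, and cells of 5000 to 10000 UMIs gave 0 (0.618%) in megakaryocyte-like cells, 0 (1%) in cluster 13 and 9 (16.2%), all lower of 42 tested, in cluster 24. The caller's doublets gave 8 (10.6%) in megakaryocyte-like and 2 (15.5%) in mesenchymal-like cells. Clustering at resolution 0.5 gave 67 (35.3%) in erythroid-like, 11 (10.4%) in megakaryocyte-like, 5 (20.5%) in mesenchymal-like and 3 (19.8%) in neural cells and 67 (38.8%) class-by-gate terms, and at resolution 2 it gave 12 (11.1%) in megakaryocyte-like cells and 1 (9.21%) class-by-gate term, against 7 (19.9%) terms with a filter of 10 CPM. The cause of these shifts was not tested.

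Single members changed sign between bins of depth. Over the 23 alternatives tried in all cells, the lowest log2 was -0.88 for Mrps18b and -0.52 for Mrps18a. In all cells of 10000 or more UMIs the log2 was -0.17 for Mrps23, -0.30 for Mrps36, -0.094 for Mrpl47, -0.18 for Mrpl28, -0.16 for Mrps34, -0.32 for Mrps18a, -0.59 for Mrps18b, -0.42 for Mrps18c and -0.74 for Mrpl12. That of Mrps18a was also -0.046 in cells of 5000 or more UMIs and -0.21 in those of 5000 to 10000 UMIs, and that of Mrps6 was 0.48 and 0.25 in the bins of 2000 to 3000 and 3000 to 5000 UMIs. Without MMPhigh 1 the log2 in all cells of 10000 or more UMIs was -0.15 for Mrps23, -0.25 for Mrps36, -0.0429 for Mrpl47, -0.20 for Mrpl28, -0.33 for Mrps18a, -0.46 for Mrps18b, -0.34 for Mrps18c and -0.68 for Mrpl12. In those of 5000 to 10000 UMIs it was then -0.20 for Mrps23, -0.44 for Mrpl47, -0.33 for Mrpl28, -0.22 for Mrps34, -0.48 for Mrps18a, -0.41 for Mrps18c and -0.51 for Mrpl12. In those of 3000 to 5000 UMIs it was -0.24 for Mrpl47, -0.082 for Mrpl28, -0.12 for Mrps34 and -0.0719 for Mrps18a, and in those of 2000 to 3000 UMIs -0.0473 for Mrpl47 and 0.26 for Mrps6. Mrps35 in cluster 15 was at log2 0.36 with thinned cells. In macrophage-like cells of 5000 to 10000 UMIs it was -0.59 for Mrpl4, -0.40 for Mrpl16, -1.07 for Mrps23, -0.0496 for Mrpl24 and -0.52 for Mrps24, which was at -0.0218 in cells of 5000 or more. In megakaryocyte-like cells of 5000 to 10000 UMIs it was -0.23 for Mrps23 and -0.23 for Mrpl32. The bins, single clusters, total-UMI scaling, the caller's doublets and classes of 10 cells were alternatives chosen after seeing the data. Shallow cells limit single members: of the germ cell-like sums, MMPlow 1 had 0 UMIs of Mrpl10 and Mrpl47, which allows up to 28.3 CPM by counting error alone.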
